A study of Mus musculus with 18 samples.

Results

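Confluent LAP2α knockout (KO) myoblasts were compared with confluent wildtype (WT) myoblasts, at the moment at which differentiation is induced (D0). The members were all 3 KO and all 3 WT libraries harvested at D0, 6 of the 18 libraries of the series, read over all genes and with same replicate numbers treated as pairs. The other 12 libraries came from WT and KO cells that were proliferating (Prol) or had spent 48 hours in 5% serum (D2, day 2). All cells were immortalized mouse myoblasts without p53, so the controls lacked p53 as well. WT cells had received the Cas9 plasmid without a guide RNA, and KO cells the same plasmid with a guide against the LAP2α-specific sequence of *Tmpo*. Both were sorted as pools of transfected cells, so that neither line is 1 clone. D0 cells had grown to confluence in 20% serum on collagen and had not yet been moved to low serum. The labels number 3 replicates per group and do not say that they came from separate cultures, so the p-values measure the spread between these samples, which may be technical.

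LAP2α is a splice form of *Tmpo* that lies in the interior of the nucleus, where it binds A-type lamins and the retinoblastoma protein. Its sister form LAP2β is anchored in the inner nuclear membrane. Myoblasts reaching confluence stand at the point where they leave the cell cycle, switch on Myogenin and begin to build sarcomeres, while they also secrete a collagen and proteoglycan matrix. The comparison at D0 asks which transcripts already differed between the genotypes before serum was lowered.

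The deposited values are RSEM expected counts, each with 0.5 counts added, scaled to the library's total (CPM, the number of reads of a gene per 1000000 reads). The 6 D0 libraries held between 27515553 and 36524795 expected counts, and 3 counts corresponded to 0.0784 to 0.117 CPM. Of 19153 genes, 17672 were tested with limma, in a fit of all 18 libraries that carried the replicate number as a block. This block was shared by the proliferating, D0 and D2 libraries, so the D0 libraries were not fitted as pairs by themselves. Values from fits that did so are given for some genes. Fold changes are log2 differences of KO minus WT on this CPM scale, given with their standard error (SE). A gene is named as called where its unadjusted p was below 0.05, its change above 1.5-fold and its level at least 10 CPM in at least 1 of the 6 libraries. The p and the CPM minimum follow the study, which asked for a larger change, a log2 fold change beyond 1.5. Mitochondrial transcripts followed the replicate number, with 1.23%, 3.39% and 2.58% of CPM in WT replicates 1, 2 and 3 and 1.05%, 4.71% and 2.42% in KO. Long intergenic RNAs were highest in WT replicate 1, with 3.98% against 0.857% to 2.05% in the other 5 libraries. Of the defining markers of other cell types, those of endothelium summed to at most 2.54 CPM and those of macrophages to at most 8.004 CPM in any D0 library. Those of smooth muscle, 4 of the 5 listed, summed to 560 to 872 CPM in WT and 585 to 715 CPM in KO, and those of cartilage and bone, 6 of the 8 listed, to 110 to 392 CPM and 135 to 359 CPM. *Cdh5*, *Ptprc*, *Adipoq*, *Sox10* and *Epcam* were not analysed here. *Pax7* was not analysed here either, and the other 7 myoblast markers summed to 158 to 192 CPM in WT and 120 to 189 CPM in KO.

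*Tmpo*, the targeted gene, lies on chromosome 10 (91147571 to 91181315, minus strand, GRCm38), and the files count all its splice forms together. Its level was 257, 239 and 302 CPM in WT replicates 1 to 3 and 224, 191 and 259 CPM in KO. KO was the lower library in every pair, but the groups overlapped. The log2 fold change was -0.25 (SE 0.15, unadjusted p = 0.111, adjusted p = 1 with limma), so that a difference in total *Tmpo* transcript was not detectable in this fit. With the same value, the unadjusted p was 0.0331 when the 6 D0 libraries were fitted alone and 0.0142 with a replicate block within each state. In proliferating cells the log2 fold change of *Tmpo* was -0.28 (SE 0.15, unadjusted p = 0.0746 with limma). At D2 it was -0.21 (SE 0.15, unadjusted p = 0.172 with limma), and KO was the lower library in every pair of both states. These values bear on the sum of splice forms and do not check the loss of LAP2α by themselves.

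Few genes differed between KO and WT myoblasts at D0. Of the 17672 genes, 76 were called (0.43%), 33 of them higher (0.187%) and 43 lower (0.243%) in KO. At an unadjusted p below 0.05 there were 505 genes (2.86%), 181 higher (1.02%) and 324 lower (1.83%), which is a smaller share than the 5% that this threshold passes where no gene differs, so single calls among the 76 are not established as differences by their p alone. With limma's adjusted p, 0 genes passed 0.05, and the smallest adjusted p was 0.0715. With the larger change that the study asked for, 26 genes were called, 8 higher and 18 lower, and 8 of the 26 were protein-coding, with *Gm45234*, *Rps12* and *Col15a1* higher and *Gadl1*, *Acat3* and *Snx22* among the 5 lower. KO and WT libraries did not overlap for 534 genes (3.02%), KO lying above WT for 196 (1.11%) and below it for 338 (1.91%), and the 3 pairs moved the same way for 4521 genes (25.6%). The count depended on single libraries: 117 genes were called without WT replicate 1, 77 of them higher and 40 lower. The number of genes called higher was 54 without WT replicate 3, 63 without KO replicate 3 and 21 without WT replicate 2. Without the replicate block 37 genes were called, 9 higher and 28 lower. When the 6 D0 libraries were fitted alone with the block, 56 protein-coding genes and 47 other transcripts were called. Of the 33 called genes that are named in the text and were refitted under every alternative, 9 had an unadjusted p below 0.05 in each fit that kept them, namely *Col15a1*, *Lama5*, *Adgre5*, *Tapbpl*, *Cmah*, *Gadl1*, *Acat3*, *Rpl27* and *Gm45234*. The p of 19 of the 33 passed 0.05 without the block, and that of 16 did so without WT replicate 2 or without KO replicate 2.

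The direction of the calls differed between protein-coding genes and other transcripts, a split that single libraries and the block could end. Of the 76 called genes, 36 were protein-coding, 24 higher and 12 lower in KO, which is 0.261% of the 13799 protein-coding genes tested. The other 40 were 9 higher and 31 lower, 1.03% of 3873. Among these, 9 long intergenic RNAs and 9 transcripts still to be experimentally checked (TEC in the annotation) were all lower in KO. The 17 pseudogenes were 9 higher and 8 lower. Of the 9 long intergenic RNAs, *AY036118* overlaps a ribosomal RNA locus that was also called lower. Protein-coding calls were 11 higher and 14 lower without WT replicate 2, 15 and 15 without KO replicate 2, and 7 and 10 without the replicate block, where the other classes had 2 and 18. They were 69 higher and 24 lower without WT replicate 1, 44 and 24 without WT replicate 3, 53 and 20 without KO replicate 3 and 25 and 20 without KO replicate 1. In the 6 D0 libraries alone with the block, protein-coding calls were 40 higher and 16 lower, and the other classes had 15 and 32. Of the other classes, 16 transcripts were called lower without WT replicate 1, 17 without WT replicate 2 and 20 without KO replicate 1, where 15 were called higher.

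**Figure D1:**
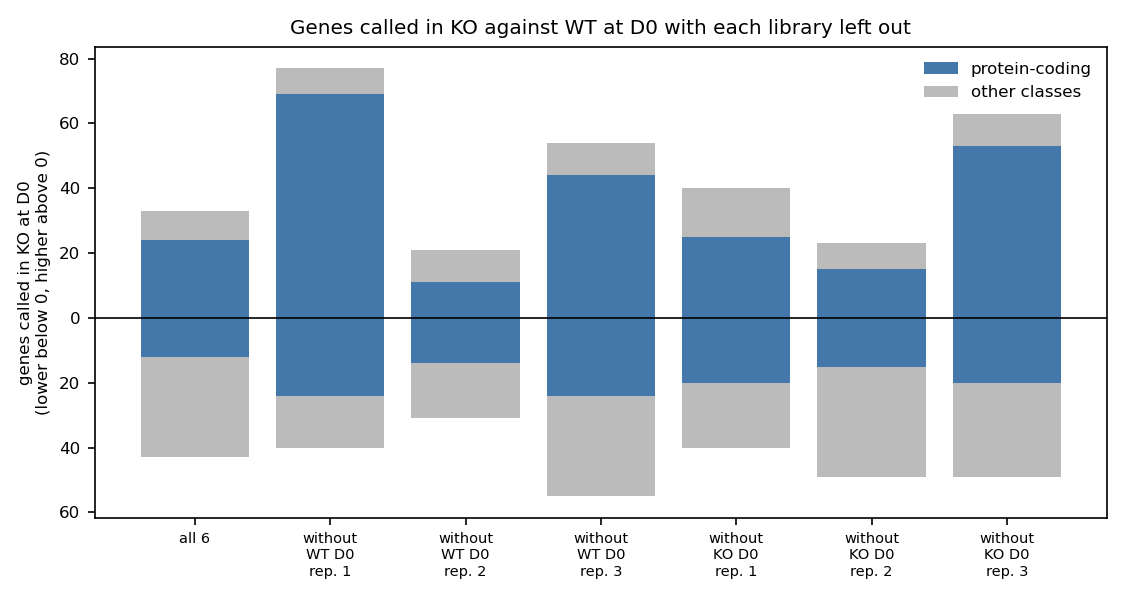
Numbers of genes called higher (above 0) or lower (below 0) in KO against WT at D0, with all 6 libraries and with each library left out, split into protein-coding genes (blue) and other classes (grey). With all libraries 24 protein-coding genes were higher and 12 lower, and without WT replicate 1 the numbers were 69 and 24.

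Of the matrix genes described here, *Col15a1*, *Thbs2* and *Col4a1* are the called members of a matrix list of 35 genes, and the others were put beside them after the calls were seen, so that the grouping is a description: *Col15a1*, *Thbs2*, *Col4a1*, *Fmod*, *Aspn* and *Efemp1* were higher and *Lama5* was lower in KO. *Col15a1*, the chain of collagen XV found in the basement membrane zone of muscle, is encoded on chromosome 4 (47208161 to 47313167, plus strand). It measured 10.3, 9.52 and 13.0 CPM in WT and 59.3, 31.2 and 25.1 CPM in KO. Every KO library lay above every WT library. The log2 fold change was 1.73 (SE 0.40, unadjusted p = 0.000557, adjusted p = 0.975 with limma), a 3.31-fold difference. Without any 1 library it stayed between 1.34 and 2.07.

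*Lama5* moved the other way. It encodes the α5 chain of laminin, a cell-binding component of basement membranes, on chromosome 2 (180176373 to 180225859, minus strand). Its level was 60.1, 32.7 and 44.5 CPM in WT and 35.4, 17.5 and 30.5 CPM in KO. KO was lower in all 3 pairs and the groups overlapped, with replicate 2 lowest in both genotypes. The log2 fold change was -0.74 (SE 0.18, unadjusted p = 0.00105, adjusted p = 0.994 with limma).

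The stretches of 250 bases before the annotated starts of *Col15a1* and *Lama5*, and of *Thbs2*, the matrix protein thrombospondin 2, are shown as examples of matrix genes in both directions that had an unadjusted p below 0.05 in the same direction in proliferating, confluent and D2 cells, as did *Fmod* and *Efemp1*, whose stretches are not shown. The sequences are from RefSeq (GRCm38.p6), 5′ to 3′ on the gene's own strand, at chr4:47207762-47208011 (plus), chr17:14694263-14694512 (minus) and chr2:180225860-180226109 (minus). Capitals mark E-boxes, the letters CANNTG that MyoD and Myogenin bind.
Col15a1: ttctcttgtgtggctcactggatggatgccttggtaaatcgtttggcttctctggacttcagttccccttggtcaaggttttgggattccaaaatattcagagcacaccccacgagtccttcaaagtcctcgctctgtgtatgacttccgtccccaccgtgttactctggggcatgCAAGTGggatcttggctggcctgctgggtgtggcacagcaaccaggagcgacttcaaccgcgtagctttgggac
Thbs2: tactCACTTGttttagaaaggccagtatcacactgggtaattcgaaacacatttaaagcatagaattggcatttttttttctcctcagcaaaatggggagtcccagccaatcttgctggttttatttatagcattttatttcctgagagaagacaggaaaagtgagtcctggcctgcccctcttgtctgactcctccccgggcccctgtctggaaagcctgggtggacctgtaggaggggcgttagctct
Lama5: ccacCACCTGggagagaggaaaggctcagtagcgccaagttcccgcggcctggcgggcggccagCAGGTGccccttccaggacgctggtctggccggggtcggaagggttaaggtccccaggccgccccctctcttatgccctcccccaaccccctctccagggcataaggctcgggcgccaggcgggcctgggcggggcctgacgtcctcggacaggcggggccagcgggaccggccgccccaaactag
*Col15a1* and *Thbs2* held 1 E-box each and *Lama5* held 2, searched on both strands. Of 32851 RefSeq stretches of this length, 66.2% held at least 1. The AP-1 letters TGANTCA occurred in none of the 3 stretches and in 6.75% of all. These matches are descriptions of the letters in these windows.

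The further matrix genes that were called had smaller folds and overlapping groups. *Thbs2*, a matricellular protein that influences collagen fibril assembly, measured 78.9, 39.2 and 53.7 CPM in WT and 261, 77.2 and 56.1 CPM in KO (log2 fold change 0.92, SE 0.38, unadjusted p = 0.0283). The difference was largest in pair 1 and small in pair 3, and p was 0.109 without WT replicate 1, 0.0971 without WT replicate 2 and 0.165 without KO replicate 1. *Col4a1*, a chain of basement membrane collagen IV, measured 156, 23.5 and 60.2 CPM in WT and 247, 61.0 and 64.9 CPM in KO (0.71, SE 0.29, unadjusted p = 0.0268). Its neighbour *Col4a2*, on the opposite strand, had the same direction in all 3 pairs, with a log2 fold change of 0.61 (SE 0.32) and an unadjusted p of 0.0763, which was 0.0473 in the 6 D0 libraries alone, 0.0412 without WT replicate 1 and 0.0282 without WT replicate 3. For *Col4a1*, p was 0.216 without WT replicate 2, 0.0729 without KO replicate 1 and 0.0758 without KO replicate 2.

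Small leucine-rich proteoglycans and a fibulin were also called higher. *Fmod*, fibromodulin, which binds collagen fibrils, measured 18.95, 6.49 and 4.71 CPM in WT and 32.0, 10.6 and 11.4 CPM in KO (log2 fold change 0.91, SE 0.32, unadjusted p = 0.0130). *Aspn*, asporin of the same family, measured 3.92, 2.496 and 1.15 CPM in WT and 7.38, 12.2 and 1.37 CPM in KO (1.15, SE 0.44, unadjusted p = 0.0196). *Efemp1*, fibulin 3, measured 20.8, 11.6 and 8.90 CPM in WT and 44.3, 21.7 and 10.7 CPM in KO (0.76, SE 0.34, unadjusted p = 0.0399). KO exceeded WT in every pair of these 3 genes, by least in pair 3 for *Aspn* and *Efemp1*. The unadjusted p was 0.0614 for *Fmod* without KO replicate 3, 0.111 and 0.127 for *Aspn* without WT or KO replicate 2, and for *Efemp1* 0.126 without WT replicate 2, 0.106 without WT replicate 3, 0.295 without KO replicate 1 and 0.0699 without KO replicate 2. Fibroblast markers, 8 of the 9 listed, summed to 88.4 to 239 CPM in WT and 88.0 to 257 CPM in KO, and their part in the matrix values was not tested.

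Genes of secreted signalling and surface proteins were called higher as well. *Sfrp2*, a secreted antagonist of Wnt, measured 206, 101.1 and 78.7 CPM in WT and 365, 133 and 114 CPM in KO (log2 fold change 0.59, SE 0.27, unadjusted p = 0.0479). *Mmp23*, a membrane-linked matrix metalloproteinase, measured 13.3, 14.6 and 8.23 CPM in WT and 19.2, 30.3 and 9.92 CPM in KO (0.62, SE 0.25, unadjusted p = 0.0264). *Adgre5*, the adhesion receptor CD97, measured 4.21, 5.42 and 7.14 CPM in WT and 12.7, 8.43 and 11.6 CPM in KO (0.98, SE 0.26, unadjusted p = 0.00213). Only for *Adgre5* of these 3 genes was every KO library above every WT library. It also kept an unadjusted p below 0.05 without any 1 library. The p of *Sfrp2* was 0.125 without WT replicate 2, 0.153 without WT replicate 3 and 0.337 without KO replicate 1. That of *Mmp23* was 0.0787 and 0.0731 without WT replicate 2 or 3 and 0.0768 and 0.152 without KO replicate 1 or 2. *S1pr3*, a receptor for sphingosine 1-phosphate, had a log2 fold change of 1.02 (SE 0.36). *Slco2a1*, a prostaglandin transporter, had one of 0.95 (SE 0.37), and *Arhgdib* and *Rhoj* had 0.67 (SE 0.24) and 0.61 (SE 0.25). *Trim25*, a ubiquitin ligase of antiviral signalling, was at 0.71 (SE 0.29) and the homeobox gene *Irx3* at 0.69 (SE 0.28). *Prl2c3*, a proliferin of the prolactin family, was at 1.24 (SE 0.55), and its reads can be shared with near-identical proliferin copies. The unadjusted p was 0.0124 for *S1pr3* and 0.0387 for *Prl2c3*, and those of the other 5 genes lay between them. Without WT replicate 2, p was 0.0566 for *S1pr3*, 0.0701 for *Slco2a1*, 0.0667 for *Arhgdib*, 0.164 for *Trim25*, 0.110 for *Irx3* and 0.106 for *Prl2c3*. Without KO replicate 2 it was 0.0647, 0.0651, 0.0836, 0.113, 0.105 and 0.0769 for the same 6 genes and 0.193 for *Rhoj*. Without KO replicate 1 it was 0.0509 for *S1pr3*, 0.112 for *Slco2a1*, 0.0931 for *Trim25* and 0.101 for *Prl2c3*. Without WT replicate 1 it was 0.0749 for *Slco2a1*, 0.109 for *Rhoj* and 0.242 for *Prl2c3*, and without KO replicate 3 it was 0.0935 for *Irx3* and 0.0543 for *Prl2c3*. The log2 fold change of *Prl2c3* was 1.90 without WT replicate 3. *Slco2a1*, *Trim25*, *Mmp23*, *Irx3*, *Rhoj*, *Prl2c3*, *Efemp1* and *Sfrp2* were named after their values were seen.

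**Figure D2:**
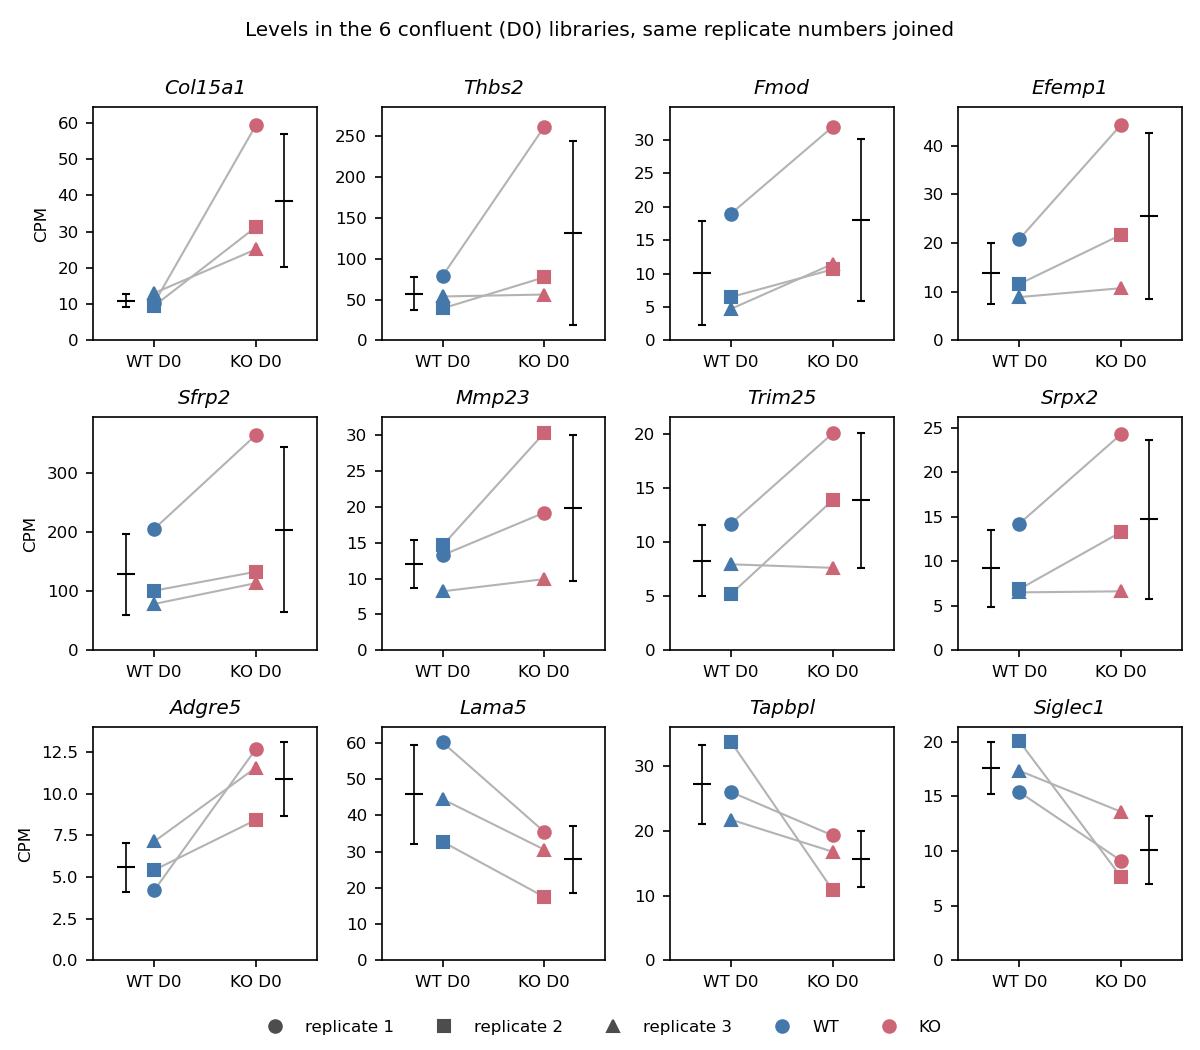
CPM in the 6 D0 libraries for 12 genes, with a symbol per replicate number, lines that join the WT (blue) and KO (red) library of each number, and the mean with its SD (n = 3) in black. The groups do not overlap for *Col15a1* and *Adgre5*, with KO above WT, or for *Tapbpl* and *Siglec1*, with KO below WT. *Srpx2* was not called, and *Lama5*, *Tapbpl* and *Siglec1* were lower in KO in all 3 pairs.

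Genes of antigen handling and cell surface sugars stood among those called lower, a grouping made after the calls were seen and given as a description. The fixed list of interferon response and antigen presentation had 0 called genes and 12 of 26 positive values. Its median was -0.04, against 0.01 over all genes tested. *Tapbpl*, a chaperone-like editor of peptides on MHC class I, measured 26.0, 33.8 and 21.8 CPM in WT and 19.3, 10.9 and 16.8 CPM in KO (log2 fold change -0.81, SE 0.22, unadjusted p = 0.00185). *Siglec1*, a sialic acid-binding receptor best known from macrophages, measured 15.4, 20.0 and 17.4 CPM in WT and 9.13, 7.65 and 13.6 CPM in KO (-0.83, SE 0.28, unadjusted p = 0.0101). *Cmah*, which hydroxylates sialic acid, measured 11.8, 14.1 and 8.75 CPM in WT and 3.73, 6.54 and 7.72 CPM in KO (-0.98, SE 0.29, unadjusted p = 0.00363). In all 3 genes every KO library lay below every WT library. *Mettl7a3*, a methyltransferase-like gene, did so as well, with 10.9, 12.2 and 10.6 CPM in WT against 5.87, 4.21 and 9.55 CPM in KO (-0.86, SE 0.27, unadjusted p = 0.00595). Without KO replicate 2, p was 0.0685 for *Siglec1* and 0.0562 for *Mettl7a3*, whose reads can be shared with its near-identical paralogs. Macrophage markers, 2 of the 7 listed, summed to 5.02 to 6.37 CPM in WT and 5.48 to 8.004 CPM in KO. *Msln*, mesothelin, and *Fyb*, an adaptor protein, overlapped between the groups, with log2 fold changes of -0.83 (SE 0.34, unadjusted p = 0.0281) and -0.88 (SE 0.38, unadjusted p = 0.0350). The p of *Msln* was 0.225 without WT replicate 2, 0.0680 without KO replicate 1 and 0.170 without KO replicate 2, and that of *Fyb* was 0.0919, 0.106 and 0.186 without WT replicate 1, WT replicate 2 or KO replicate 1.

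A further set of genes called lower had its highest values in WT replicate 2. *Gadl1*, an amino acid decarboxylase that also acts in muscle, measured 7.78, 44.8 and 2.56 CPM in WT and 1.16, 1.62 and 1.38 CPM in KO (log2 fold change -2.81, SE 0.73, unadjusted p = 0.00161). *Acat3*, a thiolase, measured 4.07, 10.2 and 1.80 CPM in WT and 1.31, 0.287 and 1.07 CPM in KO (-2.51, SE 0.66, unadjusted p = 0.00172). *Snx22*, a sorting nexin, measured 3.85, 11.7 and 1.04 CPM in WT and 0.785, 0.713 and 0.888 CPM in KO (-2.19, SE 0.78, unadjusted p = 0.0136). WT replicate 2 was the highest of all 6 libraries for each, and p was 0.123 for *Snx22* without it. Without WT replicate 2 the log2 fold changes of *Gadl1*, *Acat3* and *Snx22* were -1.90, -1.59 and -1.28, and without WT replicate 3 they were -3.77, -3.13 and -3.16. That of *Acat3* was -1.84 without KO replicate 2. Long intergenic RNAs as a class made up 3.98%, 1.15% and 1.43% of counts in WT replicates 1, 2 and 3. Of the 9 called long intergenic RNAs, 7 were highest in replicate 2 among the WT libraries and 5 had the order 2, 1, 3. Of these, *Gm26619*, named here after its values were seen, measured 30.1, 140 and 10.3 CPM in WT and 5.98, 5.85 and 8.86 CPM in KO. *Gm26825*, named on the same ground, measured 61.3, 202 and 18.9 CPM in WT and 13.0, 7.64 and 20.3 CPM in KO. How often the WT libraries had this order over all genes was not counted.

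The 2 smallest p-values belonged to loci whose reads cannot be assigned safely, and both were named after their values were seen. *Gm45234*, an annotated protein-coding locus on chromosome 6 (124739189 to 124756021, minus strand) that overlaps *Atn1* and *Grcc10* on its own strand, measured 2.83, 2.89 and 6.53 CPM in WT and 17.3, 31.2 and 13.5 CPM in KO (log2 fold change 2.36, SE 0.36, unadjusted p = 8.1e-06, adjusted p = 0.0715 with limma). The groups did not overlap. *CT010467.1*, a ribosomal RNA locus, measured 112, 42.6 and 18.4 CPM in WT and 20.3, 9.34 and 7.88 CPM in KO, a log2 fold change of -1.96. Ribosomal RNA genes, those of mitochondria included, made up 0.254%, 0.953% and 0.545% of CPM in WT and 0.218%, 0.932% and 0.491% in KO. This share had the replicate order of the mitochondrial transcripts in both genotypes and does not measure nuclear ribosomal RNA by itself. *CT010467.1* overlaps *AY036118* on its own strand. Named for this overlap, *AY036118* was itself called lower (log2 fold change -3.77) and is 1 of the 9 called long intergenic RNAs.

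Of the 81 cytoplasmic ribosomal protein genes, a list added after seeing the data, 5 were called and all 5 were higher in KO. Over all genes tested, 0.43% were called, and 0.187% were called higher. *Rps12* measured 12.6, 9.06 and 1.51 CPM in WT and 92.1, 52.8 and 14.8 CPM in KO (log2 fold change 2.90, SE 0.81, unadjusted p = 0.00274, with 3.72 without WT replicate 2 and 2.30 without KO replicate 2). *Rpl27* measured 132, 242 and 264 CPM in WT and 284, 716 and 287 CPM in KO (0.93, SE 0.28, unadjusted p = 0.00458). The groups did not overlap in these 2 genes. *Rps13*, *Rpl12* and *Rpl5* had log2 fold changes of 1.02 (SE 0.32), 0.77 (SE 0.28) and 0.79 (SE 0.29) with overlapping groups. The other members did not follow: 53 of 81 were lower in KO and the median was -0.03, against 0.01 over all genes. The share of CPM in ribosomal protein genes was 6.33%, 13.3% and 9.73% in WT and 7.01%, 12.8% and 8.79% in KO. *Atp5g2*, a subunit of the membrane ring of ATP synthase, was the other housekeeping gene called higher, at 40.7, 67.0 and 47.9 CPM in WT and 163, 143 and 71.4 CPM in KO (1.22, SE 0.43, unadjusted p = 0.0122). Without WT replicate 1, p was 0.0833 for *Rpl12*, 0.105 for *Rpl5* and 0.0501 for *Atp5g2*. Without KO replicate 1 it was 0.0639 for *Rpl5* and 0.0787 for *Atp5g2*, without KO replicate 2 it was 0.0701 for *Rpl12* and 0.0788 for *Rpl5*, and without WT replicate 2 it was 0.0549 for *Rpl12*. These genes have near-identical processed pseudogenes, with which the authors' counting may have shared their reads, so the values are uncertain. Such sharing was not tested. Of the 17 pseudogenes called, 9 were higher and 8 lower in KO, and they were not matched to these genes.

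**Figure D3:**
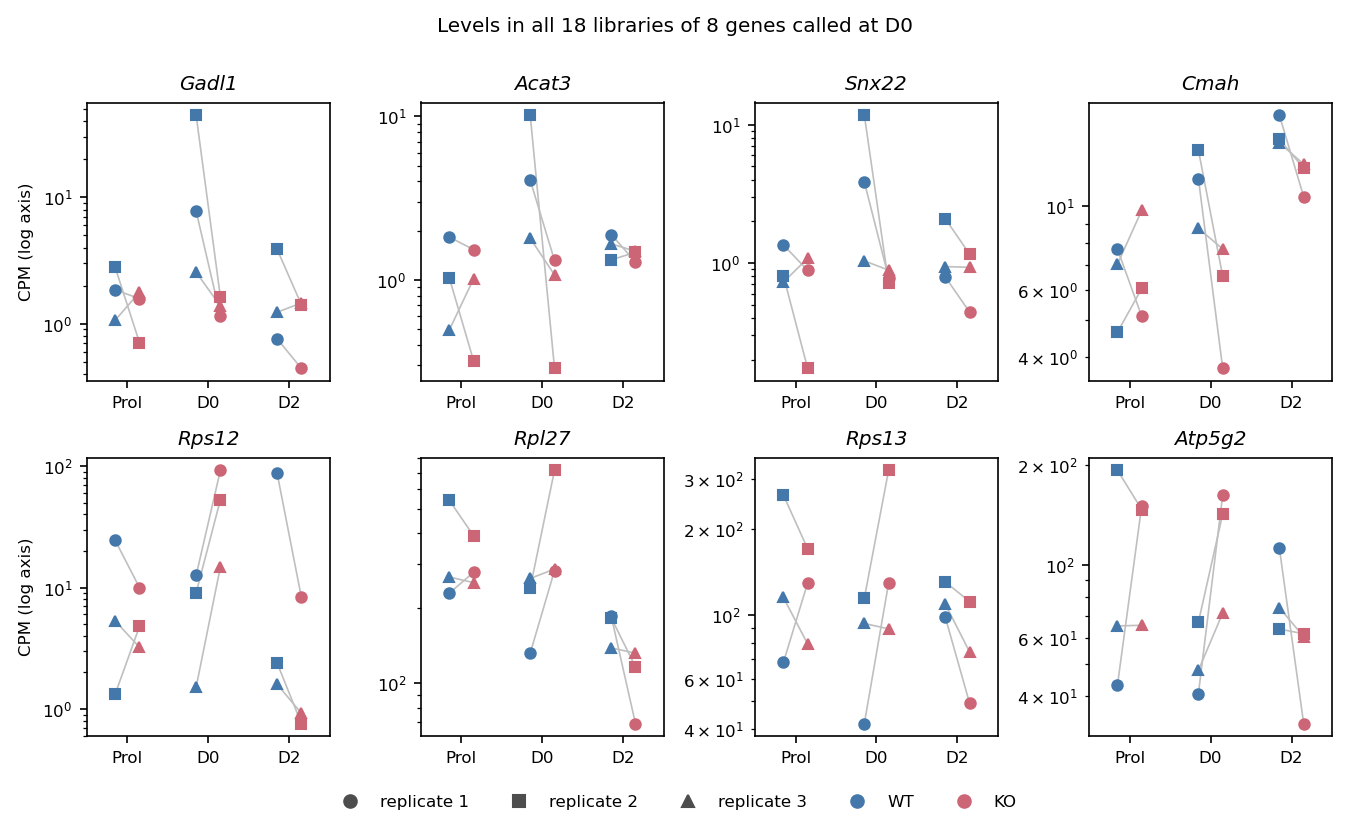
CPM on a log axis in all 18 libraries for 8 genes called at D0, with WT in blue and KO in red, a symbol per replicate number and lines that join libraries of the same number. *Gadl1*, *Acat3* and *Snx22* were high in WT D0 replicates 1 and 2, and the ribosomal protein genes were higher in KO at D0 but lower in KO at D2.

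The same genes were then read in the proliferating and the D2 libraries, which share no library with the comparison at D0, although 1 fit gave the block and the spread for all. Of the 36 protein-coding genes called at D0, 32 had the same direction in proliferating cells and 26 at D2. An unadjusted p below 0.05 in the same direction was reached by 17 in proliferating cells and 12 at D2. Over all genes tested, 60.7% had the direction of D0 in proliferating cells and 52.3% at D2, and 1.47% and 3.13% reached that p. Of the 40 other transcripts called at D0, 24 had the same direction in proliferating cells, 6 of them with p below 0.05. At D2 only 18 of the 40 had it, 0 of them with p below 0.05 by limma, and 4 had an unadjusted p below 0.05 in the opposite direction.

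A choice of genes by their differences in proliferating and D2 cells gave the reverse view. The block and the spread behind that choice still came from the fit of all 18 libraries, D0 included. In proliferating cells and at D2, 8 genes were called in the same direction in both, and all 8 were higher in KO. At D0 all 8 were higher as well, and 7 were called, namely *Col15a1*, *Thbs2*, *Fmod*, *Efemp1*, *Sfrp2*, *Mmp23* and *Trim25*. The eighth, *Srpx2*, a secreted sushi-repeat protein, measured 14.2, 6.87 and 6.51 CPM in WT and 24.3, 13.3 and 6.63 CPM in KO, with a log2 fold change of 0.58 and an unadjusted p of 0.0554, which was 0.0189 in the 6 D0 libraries alone. With a looser choice, 45 genes had an unadjusted p below 0.05 and the same direction in proliferating and D2 cells. Of these, 39 had that direction at D0 (86.7%) and 20 had p below 0.05 there (44.4%). Over the 10269 genes whose direction was shared by proliferating and D2 cells, the values at D0 were 61.1% and 1.94%, and 40 were called at D0. These shares do not allow for the shared spread, through which a gene of small spread can pass in each state. Among the 20 were *Ror2*, a receptor for Wnt5a (log2 fold change 0.87, SE 0.28 at D0), *Fstl3*, a secreted antagonist of activin (0.49), the amino acid transporter *Slc38a4* (0.49) and *Chpt1*, of phosphatidylcholine synthesis, which was lower (-0.36). The 3 states came from the same WT and KO pools, so that a difference between the pools and the loss of LAP2α cannot be told apart.

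*Col15a1* differed by nearly the same amount in the 3 states. Its log2 fold change was 1.75 in proliferating cells, 1.73 at D0 and 1.55 at D2, while its level in KO went from 19.2 to 35.5 CPM in proliferating cells to 94.6 to 180 CPM at D2. The difference between D0 and proliferating cells was -0.03 (SE 0.56, unadjusted p = 0.963), and that between D2 and D0 was -0.17 (SE 0.56, unadjusted p = 0.759). *Lama5* had log2 fold changes of -0.86, -0.74 and -0.46 in the 3 states, and *Thbs2* of 0.99, 0.92 and 1.75. For neither did the difference between states reach an unadjusted p of 0.05. *Tapbpl*, *Mettl7a3* and *Siglec1* were lower in proliferating KO cells too, with log2 fold changes of -0.81, -0.98 and -0.90, and lay at -0.14, 0.22 and -0.13 at D2.

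**Figure D4:**
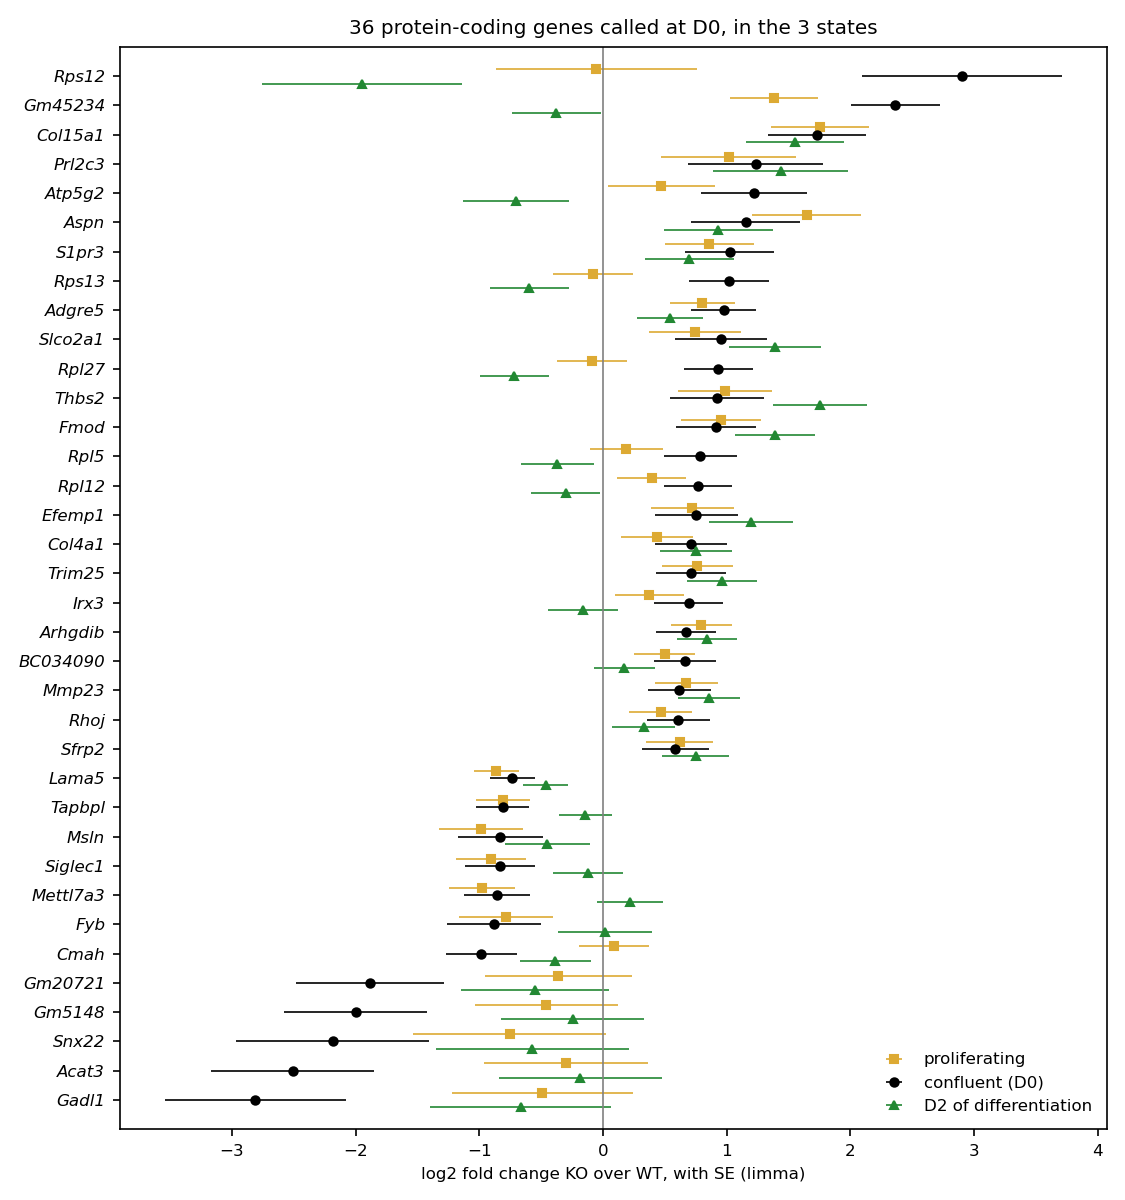
Log2 fold changes of KO over WT with SE (limma) for the 36 protein-coding genes called at D0, in proliferating cells (squares), at D0 (circles) and at D2 (triangles), ordered by the value at D0. *Col15a1*, *Fmod*, *Thbs2* and *Sfrp2* lie on the same side of 0 in all 3 states, and *Rps12*, *Rpl27* and *Rps13* lie above 0 at D0 and below 0 at D2.

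Whether the effect of the knockout differed between states was tested across all genes. Between D0 and proliferating cells, 20 genes (0.113%) met the same criteria for the difference, and 0 had an adjusted p below 0.05 with limma, where 237 had an unadjusted p below 0.05. Between D2 and D0, 151 genes (0.854%) met them, 655 had an unadjusted p below 0.05 and 0 an adjusted one. The proliferating and D2 comparisons had 45 (0.255%) and 213 (1.21%) genes called. The count for D0 against proliferating cells rose to 40 without WT D0 replicate 3, to 35 without KO D0 replicate 1 or KO Prol replicate 2 and to 32 without KO D0 replicate 3. That for D2 against D0 rose to 317 without WT D2 replicate 1, 278 without KO D2 replicate 3 and 259 without WT D2 replicate 3.

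Pathways linked to LAP2α, to confluence and to early differentiation were read as lists. Of the 18 lists, 17 had no called gene at D0, and the extracellular matrix list had 3 of 35, *Col15a1*, *Thbs2* and *Col4a1*, all higher. In that list 25 genes had a positive and 10 a negative log2 fold change, with a median of 0.15. Over all genes tested, 53.4% were positive, the median was 0.01 and 0.43% were called. The chains of collagen VI, which anchors the basement membrane of muscle, were named after their values were seen. They had positive values in all 3 pairs but did not pass the test. *Col6a3* was at 0.58 (SE 0.28, unadjusted p = 0.0515), *Col6a2* at 0.55 (SE 0.26, unadjusted p = 0.0521) and *Col6a1* at 0.49 (SE 0.27, unadjusted p = 0.0837). The spread between replicates was wide for matrix genes: *Fn1*, fibronectin, measured 5495, 826 and 2315 CPM in WT and 4260.1, 1173 and 2715 CPM in KO, with replicate 1 highest and replicate 2 lowest in both genotypes. The median of the list was -0.01 without WT replicate 2, 0.06 without KO replicate 3, 0.25 without WT replicate 3 and 0.30 without WT replicate 1. Decorin, *Dcn*, had an unadjusted p of 0.000513, yet its levels were 0.848, 0.189 and 0.0978 CPM in WT and 0.128, 0.0392 and 0.0161 CPM in KO. It failed the minimum of 10 CPM, and WT replicate 3 and KO replicates 2 and 3 lay under the level of 3 counts, so that no fold is given.

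The partners of LAP2α at the nuclear lamina showed no call. Of 17 genes, 9 had positive and 8 negative values, with a median of 0.01, and none reached an unadjusted p of 0.05 in limma's test over all genes. *Lmna*, which encodes lamins A and C, measured 925, 474 and 758 CPM in WT and 1209, 564 and 921 CPM in KO. KO was the higher library in each pair, but the groups overlapped and the log2 fold change of 0.31 (SE 0.21) had an unadjusted p of 0.170, which was 0.0481 when the 6 D0 libraries were fitted alone and 0.00563 with a replicate block within each state. *Hmgn5*, a nucleosome-binding protein that interacts with LAP2α, was at 0.41 (SE 0.22, unadjusted p = 0.0750).

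Genes of the cell cycle did not differ by more than their error. The Rb, E2F and cell cycle exit list had 17 positive and 8 negative values, a median of 0.05 and 0 of 25 genes at p below 0.05 with limma. *Rb1* measured 14.0, 5.80 and 7.68 CPM in WT and 11.2, 6.73 and 9.18 CPM in KO (log2 fold change 0.05, SE 0.21). *Cdkn1a*, the inhibitor p21, was at 0.31 (SE 0.28, unadjusted p = 0.292). Of 33 genes of DNA replication and mitosis 19 were positive, with a median of 0.02. *Mki67*, a marker of cycling cells, measured 464, 125 and 237 CPM in WT and 376, 139 and 238 CPM in KO (-0.05, SE 0.28).

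Myogenic genes varied mainly between replicates. *Myf5*, which marks undifferentiated myoblasts, measured 27.0, 37.1 and 24.1 CPM in WT and 27.4, 23.8 and 26.3 CPM in KO (log2 fold change -0.17, SE 0.24). *Myod1* measured 2.51, 1.53 and 3.42 CPM in WT and 3.10, 3.54 and 3.76 CPM in KO (0.55, SE 0.45, unadjusted p = 0.244, and 0.0423 with a replicate block within each state). *Myog*, the gene of Myogenin, measured 4.53, 0.775 and 1.23 CPM in WT and 1.07, 3.15 and 0.5002 CPM in KO, so that it was lower in KO in pairs 1 and 3 and higher in pair 2. Its log2 fold change was -0.45 in the fit, -1.24 (unadjusted p = 0.0378) without WT replicate 2 and 0.22 without WT replicate 1. The embryonic myosin gene *Myh3* had the same order, with 11.3, 0.772 and 1.19 CPM in WT and 0.728, 5.29 and 0.565 CPM in KO (-0.75, SE 0.86, unadjusted p = 0.394, and 0.0391 without KO replicate 2). Over 36 sarcomere and excitation-contraction genes the median difference was -2.17 in pair 1, 1.03 in pair 2 and -0.50 in pair 3. The fitted median was -0.42, with 31 of 36 values negative, and it was -0.06 without WT replicate 1, -0.99 without WT replicate 2, 0.10 without KO replicate 1 and -1.13 without KO replicate 2. *Neb* (-1.71, SE 0.69, unadjusted p = 0.0244) and *Mybpc1* (-1.58, SE 0.72, unadjusted p = 0.0452) had at most 1.94 and 0.0978 CPM in any D0 library. Of the 36 genes, 3 reached 10 CPM in a D0 library.

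**Figure D5:**
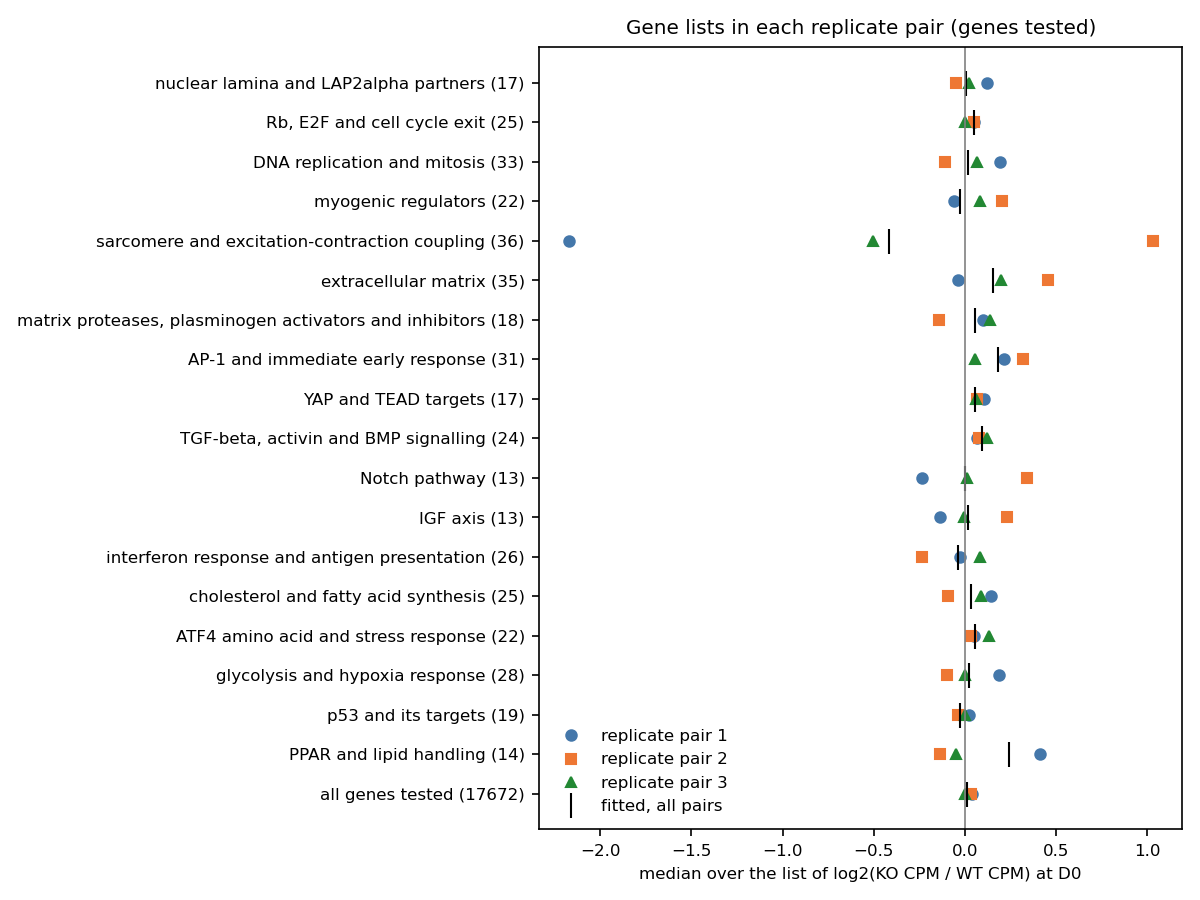
Median over each gene list of the log2 ratio of KO to WT CPM at D0 in replicate pairs 1, 2 and 3, with the median of the fitted values as a black bar and the number of genes tested in brackets. The sarcomere list lies at -2.17, 1.03 and -0.50 in the 3 pairs, whereas the list of all genes lies close to 0 in each.

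Immediate early genes, the first transcripts that serum and growth factors induce, leaned towards KO without a call. Of 31 genes 28 had positive values, with a median of 0.18. Over all genes tested, 53.4% were positive, the median was 0.01 and 2.86% had an unadjusted p below 0.05 with limma. In the list 2 genes had p below 0.05, the transcription factor *Egr3* and the receptor tyrosine kinase feedback inhibitor *Spry1*. *Egr3* measured 2.26, 1.88 and 2.13 CPM in WT and 5.90, 5.38 and 2.57 CPM in KO (log2 fold change 1.06, SE 0.44, unadjusted p = 0.0293). *Spry1* measured 5.07, 4.63 and 6.55 CPM in WT and 8.21, 8.72 and 6.18 CPM in KO (0.51, SE 0.17, unadjusted p = 0.00956). KO was higher in pairs 1 and 2 of both genes, and in pair 3 it was close to WT. Neither reached 10 CPM. *Egr1* was at 0.41 (SE 0.36) and *Fos* at 0.40 (SE 0.48), both higher in KO in all 3 pairs. With a replicate block within each state their unadjusted p was 0.00641 and 0.0383, and that of *Egr1* was 0.00799 in the 6 D0 libraries alone. The median of the list was -0.01 without WT replicate 1, 0.35 without WT replicate 3, 0.39 without KO replicate 1 and 0.11 and 0.06 without KO replicate 2 or 3. For *Egr3*, p was 0.121 without WT replicate 1, 0.0517 without WT replicate 2, 0.0542 without KO replicate 1 and 0.155 without KO replicate 2. For *Spry1* it was 0.0651 without WT replicate 2 and 0.0600 and 0.0550 without KO replicate 1 or 2.

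Signalling and metabolic lists had medians between -0.04 and 0.10, apart from the PPAR and lipid list with 0.24. Over all genes tested, the median was 0.01 and 53.4% of values were positive. YAP and TEAD targets were positive in 14 of 17 genes with a median of 0.06, and TGF-β, activin and BMP genes in 17 of 24 with a median of 0.10. The Notch and IGF lists had medians of 0.00 and 0.02. In the IGF list *Igfbp5*, an IGF-binding protein, measured 23.1, 6.98 and 9.25 CPM in WT and 27.1, 15.3 and 11.4 CPM in KO (log2 fold change 0.55, SE 0.23, unadjusted p = 0.0284), under the 1.5-fold criterion. Its p was 0.197 and 0.0894 without WT replicate 2 or 3 and 0.110 and 0.115 without KO replicate 1 or 2. Matrix proteases and their inhibitors were positive in 12 of 18 genes, and *Mmp3*, stromelysin 1, had an unadjusted p of 0.00668 at no more than 0.275 CPM. Interferon and antigen presentation genes were positive in 12 of 26, with *Mx2* at 1.81 (SE 0.80) but at most 0.327 CPM. In the PPAR and lipid list, positive in 9 of 14, *Pparg* measured 12.7, 8.59 and 12.1 CPM in WT and 26.5, 12.6 and 11.7 CPM in KO (0.52, SE 0.24, unadjusted p = 0.0474), with p at 0.176 and 0.158 without WT replicate 1 or 2 and 0.236 without KO replicate 1. Adipocyte markers other than *Pparg*, 3 of the 5 listed, summed to 2.82 to 23.2 CPM in WT and 7.32 to 28.7 CPM in KO. Cholesterol and fatty acid synthesis, the ATF4 response, glycolysis and hypoxia, and p53 targets had medians of 0.03, 0.06, 0.02 and -0.03, and no gene of these 4 lists had p below 0.05.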

How the data were processed

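The authors isolated polyadenylated RNA, made strand-marked libraries, trimmed reads with cutadapt, aligned them with NextGenMap to the GRCm38 transcriptome, estimated counts per gene with RSEM and scaled them with the TMM factors of edgeR. The deposited values are these CPM, in which 0.5 was added to each expected count and the sum expressed per 1000000 counts of the TMM-corrected library size, written with decimal commas. The expected counts were recovered from them. RSEM was set to reads from the reverse strand only. Which library was on which sequencing lane is not given in the sources used here.

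The log2 of the deposited CPM was fitted with limma 3.58.1 (R 4.3.3; lmFit, eBayes with trend) over all 18 libraries, with 6 groups and the replicate number as a block shared by all 3 states. A gene was tested where the 3 libraries of some group each held over 5 expected counts, and p-values were adjusted over all of them by Benjamini-Hochberg. Calls used a 1.5-fold change, where the study used a log2 fold change of 1.5. The study used voom weights with the sequencing lane as a block, which is not in the labels. Replicate numbers come from the sample labels. Deviations from the group means of same-numbered WT and KO libraries at D0 correlated with r of 0.503, 0.47 and 0.355 across genes. Those of different-numbered libraries had r from -0.418 to -0.0713. Where same numbers correlate, taking deviations from group means draws the values of different numbers below 0. The contrast is therefore a description, and the pairing by number was set before this check. In proliferating cells r was 0.268, 0.315 and 0.163 for same numbers and -0.248 to -0.0257 for different ones. At D2 same numbers had 0.645, 0.367 and 0.276. There WT replicate 2 with KO replicate 3 had 0.381, and WT replicate 3 with KO replicate 2 had 0.322. The block thus did not separate replicates 2 and 3 as cleanly at D2.

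The genes named were *Tmpo*, up to 12 protein-coding genes called in each direction with the smallest p, leaving out predicted genes (10 were left among the lower), and called or key members of 18 pathway lists. Others were named after their values were seen. Those not marked so where they appear include *Srpx2*, *Ror2*, *Fstl3*, *Slc38a4*, *Chpt1*, *Fn1*, *Hmgn5* and *Cdkn1a*. The members and lists were chosen with earlier results of these data known. Alternatives were other blocks, voom weights, scalings, filters, thresholds and each library left out. The fit was tested on simulated data. Promoter letters were read with Python 3.11.15 from RefSeq. The level of 3 counts covers counting error only.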

Additional observations from a re-analysis of the deposited data

Results flagged for a closer look

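Genes described at D0 whose KO to WT difference also differed from that of another state are given as values. They were chosen by their difference at D0, which enters the tested difference itself. Each met the criteria for calls in limma's test of the difference between states, and none had an adjusted p below 0.05.

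Between D0 and proliferating cells, the log2 fold change of KO over WT at D0 exceeded that in proliferating cells by 2.95 for *Rps12*, 1.10 for *Rps13* and 1.02 for *Rpl27*. The difference was -1.07 for *Cmah*, -2.21 for *Acat3* and -2.32 for *Gadl1*.

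From D0 to D2 the ribosomal protein genes had the opposite sign, with differences of -4.85 for *Rps12*, -1.65 for *Rpl27*, -1.61 for *Rps13*, -1.16 for *Rpl5* and -1.07 for *Rpl12*. That of *Atp5g2* was -1.92 and that of *Gm45234* was -2.74. The homeobox gene *Irx3* had -0.85 and the feedback inhibitor *Spry1* -0.65. Differences were positive for *Acat3* (2.32), *Dcn* (2.63), *Mettl7a3* (1.07) and *Tapbpl* (0.67), all of which had negative values at D0, and *Dcn* lay near the level of 3 counts there.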

How the results depend on the processing

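The 76 calls at D0 became 37 with no replicate block, 39 with at least 10 CPM in all 3 libraries of a group, 26 with an absolute log2 fold change over 1.5, 446 with no minimum of 10 CPM and 0 with limma's adjusted p, where 505 genes had an unadjusted p below 0.05. Leaving out 1 library gave 52 to 117. The 6 D0 libraries alone, with the block, gave 56 protein-coding calls, 40 higher and 16 lower, and 47 others, 15 higher and 32 lower. With the adjusted p, 3 genes passed in the 6 D0 libraries alone and 2 each with voom weights, with the 10 CPM filter and without WT replicate 3. The share of calls that were lower in KO was 56.6%, against 75.7% without the block and 34.2% to 68.1% with 1 library left out. For the difference between D0 and proliferating cells, the 20 calls became 4 with no replicate block, 11 with the 10 CPM filter, 7 with the larger fold, 236 with no CPM minimum, 0 with the adjusted p and 18 to 40 with 1 library left out. For D2 against D0, the 151 became 57 with no replicate block, 34, 565 and 0 with the thresholds in that order, and 122 to 317 with 1 library left out. *Tmpo* kept -0.25 but passed p 0.05 with a replicate block within each state (0.0142) and in the 6 D0 libraries alone (0.0331). Some genes that were not called changed sign with 1 library left out: *Myf5* (-0.41 to 0.034), *Myog* (-1.24 to 0.22), *Myh3* (-1.86 to 0.24, and 0.18), *Actc1* (-1.13 to 0.21, and 0.06), *Mki67* (-0.30 to 0.27, and 0.08), *Rb1* (-0.086 to 0.23, and -0.03) and *Mgp* (-0.45 to 0.22, and 0.01). Of the 33 called genes refitted, 0 changed sign and 24 passed p 0.05 under some alternative, 19 of them without the block. The cause was not tested. Depth limits genes near 3 counts, such as *Dcn*.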

Other observations

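Genes that follow differentiation were read at D0 through the WT libraries of the other states. Of 2213 genes called higher in WT D2 than in proliferating WT cells (12.5% of those tested), 59.0% had a positive KO to WT value at D0 and 18 were called, 15 of them higher in KO (0.813% called). Of 2575 genes called lower (14.6%), 63.0% were positive and 15 were called, 12 of them lower in KO (0.583% called). Over all genes tested 53.4% were positive and 0.43% were called. The pairs differed: the genes lower in WT D2 were higher in KO for 81.8% in pair 1, 40.4% in pair 2 and 57.9% in pair 3, and the genes higher in WT D2 for 46.8%, 62.1% and 56.8%.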
